A study of Mus musculus with 32 samples.

Results

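The genes described here serve protein folding and secretion in the endoplasmic reticulum (ER). They are 38 mouse genes chosen by symbol: 11 chaperones and co-chaperones of the ER lumen, 4 protein disulfide isomerases, 4 stress sensors together with the transcription factor gene Xbp1, 9 translocon and translocon-associated genes, and 9 genes of ER-associated degradation. All 38 were found among the 50686 genes of the tables. The rule uses no measured value, but the genes were chosen with earlier results of these data known. Polyadenylated RNA was sequenced from 32 libraries of sorted intestinal crypt cells of C57BL6 mice. Stem cells were the cells with high eGFP from the Lgr5 reporter and progenitors those with low eGFP, both gated as living EpCAM+ cells with low or no CD24 and without CD31, Ter119 or CD45. Each population came from wild-type (WT) or Cpt1a knockout (KO) mice on a high-fat (HF) or a high-fat control (HFC) diet, which gives 8 groups of 4 libraries. The WT label is Villin-CreER; Lgr5-GFP-IRES-CreER and the KO label adds Cpt1afl/fl, so both genotypes carried the Lgr5 reporter allele and both CreER drivers, with Villin-CreER acting in the intestinal epithelium. Cpt1a encodes the enzyme that brings long-chain fatty acids to the mitochondrion for oxidation. The labels give 2 female and 2 male mice per group, but the columns of the tables carry neither sex nor replicate number, and age and time on diet are not given in the sources used here. Libraries are lettered a to d within a group, in the order of their columns.

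Secreted and membrane proteins enter the ER through the Sec61 translocon, are folded there by chaperones such as BiP (encoded by Hspa5) and by disulfide isomerases, and, when they fail to fold, are pulled back to the cytosol for degradation. When folding falls behind, the sensors IRE1, ATF6 and PERK start the unfolded protein response, in which IRE1 splices the Xbp1 messenger and XBP1 and ATF6 raise the genes of the folding machinery. In the intestine this machinery is best known from the cells that secrete most, the goblet cells that make mucus and the Paneth cells that make antimicrobial peptides, and IRE1 beta (encoded by Ern2) is a form of the sensor found in mucus-secreting epithelia.

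The best described DNA element of this response is the ER stress element, CCAAT and CCACG with 9 unspecified bases between them, which is bound by NF-Y at its first end and by ATF6 or XBP1 at the other. RefSeq promoters on GRCm38.p6, from 250 bases before to 50 bases after each gene start, were held for 31 of the 38 genes, 32 promoters in all. Ern2, Sec61a1, Derl1, Manf, Ssr2, Atf6 and Hyou1 had no entry. Searched on both strands for exact letters, the element was in the promoters of 9 of the 31 genes (29.0%), namely Calr, Canx, Creld2, Derl3, Dnajc3, Hsp90b1, Hspa5, Pdia6 and Syvn1, beside 39 of all 32851 promoters (0.119%). The shorter ER stress element II, ATTGG and CCACG with 1 unspecified base between them, was in 2 of the 31 (6.5%), Herpud1 and Dnajb11, beside 12 of all promoters (0.037%). The core of the UPR element, TGACGTGG, was in 0 of the 31 and in 222 of all promoters (0.676%). The following stretches are shown because they hold these matches in genes that the results return to. Each runs 5′ to 3′ on the strand of the gene, with 5 bases on each side, and the capitals mark the fixed bases of the element, so that CGTGG before ATTGG is the element read on the opposite strand.
Hspa5, chr2:34772020-34772048, plus strand: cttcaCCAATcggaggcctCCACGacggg
Hsp90b1, chr10:86705633-86705661, minus strand: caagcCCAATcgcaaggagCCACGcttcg
Hsp90b1, chr10:86705528-86705556, minus strand: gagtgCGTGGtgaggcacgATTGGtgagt
Calr, chr8:84847070-84847098, minus strand: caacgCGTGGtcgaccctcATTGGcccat
Pdia6, chr12:17266486-17266514, plus strand: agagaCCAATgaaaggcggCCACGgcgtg
Creld2, chr15:88819515-88819543, plus strand: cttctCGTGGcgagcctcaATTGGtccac
Syvn1, chr19:6046527-6046555, plus strand: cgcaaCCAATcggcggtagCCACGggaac
Herpud1, chr8:94386372-94386392, plus strand: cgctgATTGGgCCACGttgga
Counting the start base as 0, the matches began at -65 in Hspa5, at -212 and -107 in Hsp90b1, at -44 in Syvn1 and at -52 in Herpud1. The match of Dnajb11 began at 7, past the start. A match describes the letters only and is no evidence of binding.

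**Figure D1:**
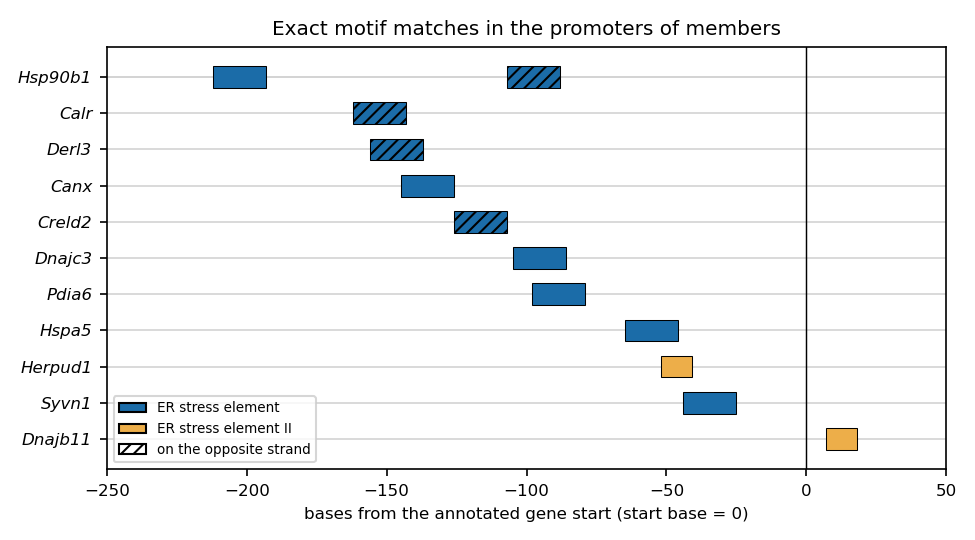
Position of each exact match in the promoters of the 11 genes that hold one, in bases from the annotated gene start. Blue bars are the ER stress element, yellow bars the ER stress element II, and hatched bars lie on the opposite strand. Hsp90b1 holds 2 matches, and only the match of Dnajb11 lies after the start.

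The libraries held between 3307711 and 7337425 counts, with a median of 5655066.5. Levels in single libraries are given in CPM, the counts of a gene scaled to the TMM-adjusted total of its library, and levels compared between genes in TPM, which also corrects for transcript length. Cpt1a stood at 18.8 to 30.6 CPM in the KO libraries and at 119 to 347 CPM in the WT libraries, and Lgr5 at 282 to 515 CPM in stem and 11.9 to 85.7 CPM in progenitor libraries, so both labels separated all libraries. Epcam was at 1904 CPM or more in every library, and Ptprc (CD45) and Pecam1 (CD31) stayed under 1 CPM, with highest values of 0.614 and 0.979. In all 8 groups Xist, the RNA of the inactive X chromosome of females, stood at 44.4 to 107 CPM in libraries a and b and at most at 0.56 CPM in libraries c and d, so each group holds 2 libraries of each kind. Replicates are labelled as separate samples, but nothing in the labels ties a column to an animal, so p-values measure the spread between these samples.

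Stem cells held less messenger of nearly every ER folding and secretion gene than progenitors of the same genotype and diet. By edgeR's quasi-likelihood test with Benjamini-Hochberg adjustment, 37 of the 38 were lower in stem cells, 0 were higher, and Herpud1 did not pass. Among all 13088 genes tested, 63.5% passed in either direction and 31.0% were lower. The median log2 difference of the 38 was -0.94, beside 0.02 for all genes tested. In 25 of the 38 every stem library lay below every progenitor library, which held for 6.95% of all genes. Each gene was also compared within the 4 settings of genotype and diet, and 149 of those 152 differences were negative, the other 3 belonging to Herpud1. The summed TPM of the 38 made up 0.63 to 0.83% of all TPM in the 16 stem libraries and 0.89 to 1.34% in the 16 progenitor libraries, without overlap. In bulk samples such as these, fewer cells of a type and less RNA per cell cannot be told apart.

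**Figure D2:**
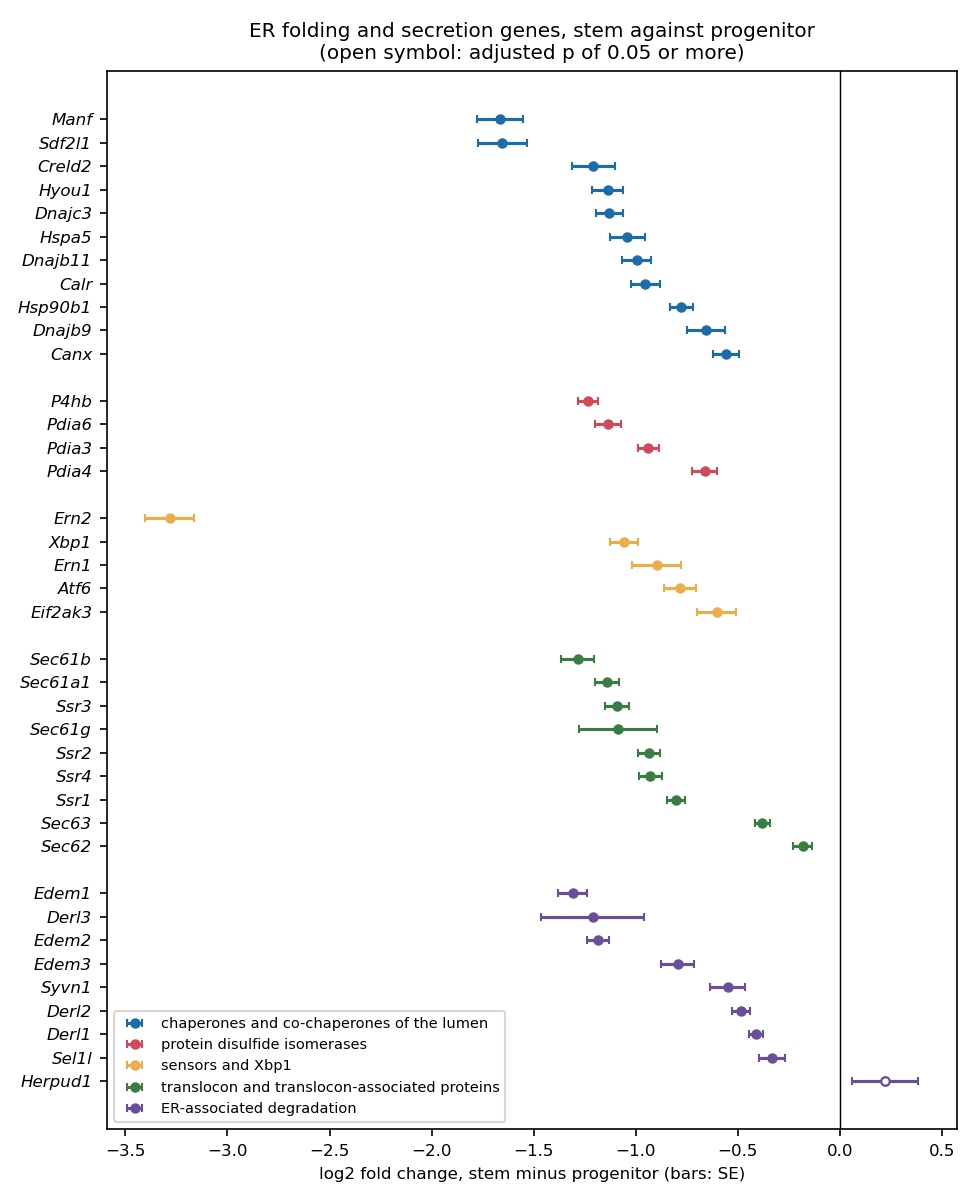
Log2 fold change of each of the 38 genes, stem minus progenitor, averaged over the 4 settings of genotype and diet (bars: SE), grouped by role. All filled symbols lie below 0, from -3.28 for Ern2 to -0.18 for Sec62, and the open symbol of Herpud1 lies at 0.22.

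All 11 chaperone and co-chaperone genes were lower in stem cells, with a median log2 difference of -1.04. Hspa5 encodes BiP, the Hsp70 of the ER lumen and the most abundant chaperone gene of the set. It ranged from 763 to 1557 CPM in stem libraries, with a median of 1002, and from 1480 to 2963 CPM in progenitor libraries, with a median of 2141. The groups overlapped only at their edges, and Hspa5 was 2.06-fold lower in stem cells (log2 -1.04 ± 0.08 (SE), adjusted p 5.70e-12). The largest differences of this role were in Manf and Sdf2l1, a secreted BiP-binding protein of the stress response and an ER-resident partner of ERdj co-chaperones. Manf had a low of 44.2, a median of 59.6 and a high of 97.9 CPM in stem libraries, against 134, 193 and 269 CPM in progenitor libraries. Sdf2l1 had 31.5, 50.2 and 81.8 CPM in stem and 123, 165 and 251 CPM in progenitor libraries. Neither gene's groups overlapped, and they were 3.17-fold and 3.15-fold lower in stem cells (log2 -1.66 ± 0.11 and -1.65 ± 0.12 (SE), adjusted p 4.22e-13 and 2.04e-12).

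Creld2, another secreted gene of the stress response, also showed no overlap. Its stem libraries had a low of 53.9, a median of 82.5 and a high of 110 CPM, and its progenitor libraries 128, 188 and 301 CPM (log2 -1.21 ± 0.11 (SE), adjusted p 9.59e-11). Hsp90b1, the Hsp90 of the lumen, Calr, the lectin chaperone calreticulin, Hyou1, a nucleotide exchange factor for BiP, and the BiP co-chaperones Dnajb11 and Dnajc3 fell by 0.78 to 1.14 on the log2 scale without overlap. The smallest differences of the role were in Dnajb9, the inducible co-chaperone ERdj4, at -0.66, and in Canx, the membrane-bound lectin chaperone calnexin, at -0.56 on the log2 scale. Both overlapped between populations and both passed the test.

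The 4 protein disulfide isomerases, which form and rearrange disulfide bonds in folding proteins, were all lower in stem cells and none overlapped. P4hb, the archetype of the family, had a low of 544, a median of 603 and a high of 709 CPM in stem libraries and 1146, 1518 and 1631 CPM in progenitor libraries. That difference of 2.35-fold (log2 -1.23 ± 0.05 (SE)) had an adjusted p of 6.84e-19. Pdia6, which acts with BiP, was 2.2-fold lower, Pdia3, which acts on glycoproteins with calnexin and calreticulin, was 1.91-fold lower, and Pdia4 was 1.58-fold lower. Pdia3 was the highest of the 38 genes in both populations, at 1108 ± 71.5 TPM in stem and 1736 ± 181 TPM in progenitor libraries (SD, n = 16 each).

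Among the sensors, Ern2 stood far apart from the rest in the size of its difference. This gene, at chr7:122169893-122186207 on the minus strand of GRCm38, had a low of 11.1, a median of 23.6 and a high of 35.8 CPM in stem libraries. In progenitor libraries it had a low of 139, a median of 221 and a high of 332 CPM. The lowest progenitor library was thus far above the highest stem library, and the fold was 9.73 (log2 -3.28 ± 0.12 (SE), adjusted p 6.38e-19). Within the 4 settings the log2 difference of Ern2 ran from -3.83 to -3.00.

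Its ubiquitous relative Ern1, which encodes IRE1 alpha, was among the lowest of the 38 genes, at 2.26 ± 0.9 TPM in stem and 2.84 ± 0.87 TPM in progenitor libraries (SD, n = 16 each). In CPM it ranged from 2.55 to 7.68 with a median of 5.19 in stem and from 7.07 to 16.5 with a median of 9.48 in progenitor libraries. Those ranges met at their edges, and Ern1 was 1.86-fold lower in stem cells (log2 -0.90 ± 0.12 (SE), adjusted p 1.51e-07). Its TPM ranges overlapped widely, at 0.65 to 4.43 in stem and 1.66 to 4.71 in progenitor libraries. With limma on the deposited log2 TPM the difference was smaller, at -0.26 (adjusted p 0.046), or -0.53 relative to the median of all genes. In TPM, Ern2 stood at 13.6 ± 4.05 in stem and 106 ± 25.1 in progenitor libraries (SD, n = 16 each), above Ern1 in both. Xbp1, whose messenger both forms of IRE1 can cut, had a low of 232, a median of 286 and a high of 382 CPM in stem libraries and 442, 570 and 780 CPM in progenitor libraries. It did not overlap and was 2.08-fold lower in stem cells (log2 -1.06 ± 0.07 (SE), adjusted p 3.40e-14). Gene-level counts do not separate its spliced from its unspliced form. Atf6, which encodes the sensor that is cleaved in the Golgi, and Eif2ak3, which encodes PERK, fell by 0.78 and 0.60 on the log2 scale, with overlap of the populations.

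Ddit3, the gene of the death-promoting factor CHOP and a target of the PERK branch, lies outside the 38. It was at 4.4 to 10.9 CPM in stem and 6.71 to 14.8 CPM in progenitor libraries, with much overlap, and was lower in stem cells by a log2 difference of -0.33 ± 0.11 (SE, adjusted p 0.0129), which did not pass in limma on the deposited log2 TPM (-0.04, adjusted p 0.741). Atf4, the factor translated when PERK is active, was at 42.0 to 90.04 CPM in stem and 68.9 to 128 CPM in progenitor libraries (log2 -0.68 ± 0.08 (SE), adjusted p 3.01e-08).

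All 9 genes of the translocon and its associated complex were lower in stem cells, with a median log2 difference of -0.93, and 7 of them did not overlap. Sec61a1 encodes the pore itself. It had a low of 327, a median of 379 and a high of 427 CPM in stem libraries and 617, 844 and 1045 CPM in progenitor libraries, a 2.2-fold difference (log2 -1.14 ± 0.06 (SE), adjusted p 1.55e-16). Sec61b, a small subunit of the same channel, had a low of 47.0, a median of 63.9 and a high of 84.1 CPM in stem and 117, 146 and 178 CPM in progenitor libraries (log2 -1.28 ± 0.08 (SE), adjusted p 2.90e-14). Ssr1, Ssr2, Ssr3 and Ssr4, the subunits of the translocon-associated complex, lay between -1.09 and -0.80. Sec63 and Sec62, which serve transport after translation and, for Sec62, recovery from stress, differed least, at -0.38 and -0.18. Sec62 was the smallest difference of all that passed, 1.13-fold with an adjusted p of 8.89e-04, and its populations overlapped.

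The value of Sec61g, the third channel subunit, is uncertain because annotated near copies share its sequence. Over all libraries 806 counts were assigned to Sec61g and 14661 to Gm10177, which is 100% identical to a Sec61g transcript over 420 of its 444 bases. Sec61g was at 0.645 to 4.65 CPM in stem and 2.93 to 9.92 CPM in progenitor libraries. Gm10177 was at 38.2 to 77.7 CPM in stem and 82.9 to 134 CPM in progenitor libraries. Both were lower in stem cells, by log2 -1.09 ± 0.19 and -0.96 ± 0.09 (SE, adjusted p 1.19e-05 and 3.38e-10), and only the second was free of overlap. Exons overlap elsewhere too: 13 of the 38 genes share some exon bases with another annotated gene, at most 12.8% of their exon length (Ssr2). How strand was used in counting is not given in the sources used here, so reads in the shared bases cannot be told apart. The partners with over 10% of the counts of a gene were Mis12 for Derl2, Dcaf1 and Rbm15b for Manf and Mrpl49 for Syvn1, over 2.87%, 4.14%, 0.4% and 1.87% of the exon bases.

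ER-associated degradation showed the smallest differences of the 5 roles, with a median log2 difference of -0.55 and 8 of 9 genes lower in stem cells. Edem1 and Edem2, lectins that hand misfolded glycoproteins to degradation, differed most of the abundant genes. Edem1 had a low of 55.2, a median of 72.4 and a high of 97.8 CPM in stem libraries and 138, 174 and 257 CPM in progenitor libraries (log2 -1.31 ± 0.07 (SE), adjusted p 8.62e-16). Edem2 had 81.4, 91.0 and 102 CPM in stem and 164, 206 and 255 CPM in progenitor libraries (log2 -1.18 ± 0.05 (SE), adjusted p 1.26e-17). Neither overlapped. Derl3, a member of the derlin family that pull proteins out of the membrane, was close to the limit of detection. It was at 0.56 to 3.27 CPM with a median of 1.01 in stem and at 0.231 to 5.58 CPM with a median of 2.67 in progenitor libraries, with wide overlap (log2 -1.21 ± 0.25 (SE), adjusted p 1.16e-04). Its relatives Derl1 and Derl2 differed by -0.41 and -0.48 without overlap, and Edem3 and the ubiquitin ligase pair Syvn1 and Sel1l by -0.79, -0.55 and -0.33 with overlap.

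Herpud1, a stress-induced scaffold of the same ligase, was the only one of the 38 genes whose difference between populations was positive. It had a low of 253, a median of 607 and a high of 1220 CPM in stem libraries and 373, 499 and 941 CPM in progenitor libraries (log2 0.22 ± 0.16 (SE), adjusted p 0.236). Stem libraries lay on both sides of the progenitor range. The spread was wide within groups: the 4 WT stem libraries on HFC diet held 1165, 418, 1220 and 609 CPM. Across the 8 groups the median coefficient of variation was 30.4% for Herpud1, 15.9% for Hspa5 and 4.48% for Derl1, the steadiest of the 38, while the barely detected Derl3 had 59.4%. In TPM, Herpud1 had rank 3 of the 38 in stem libraries, after Pdia3 and Hspa5, and rank 9 in progenitor libraries, at 600.2 ± 268 against 408 ± 111 TPM (SD, n = 16 each). On the deposited log2 TPM, tested with limma, Herpud1 passed as higher in stem cells (0.47, adjusted p 0.0142), while all genes tested then had a median of 0.27, and 0.20 was left after that shift.

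**Figure D3:**
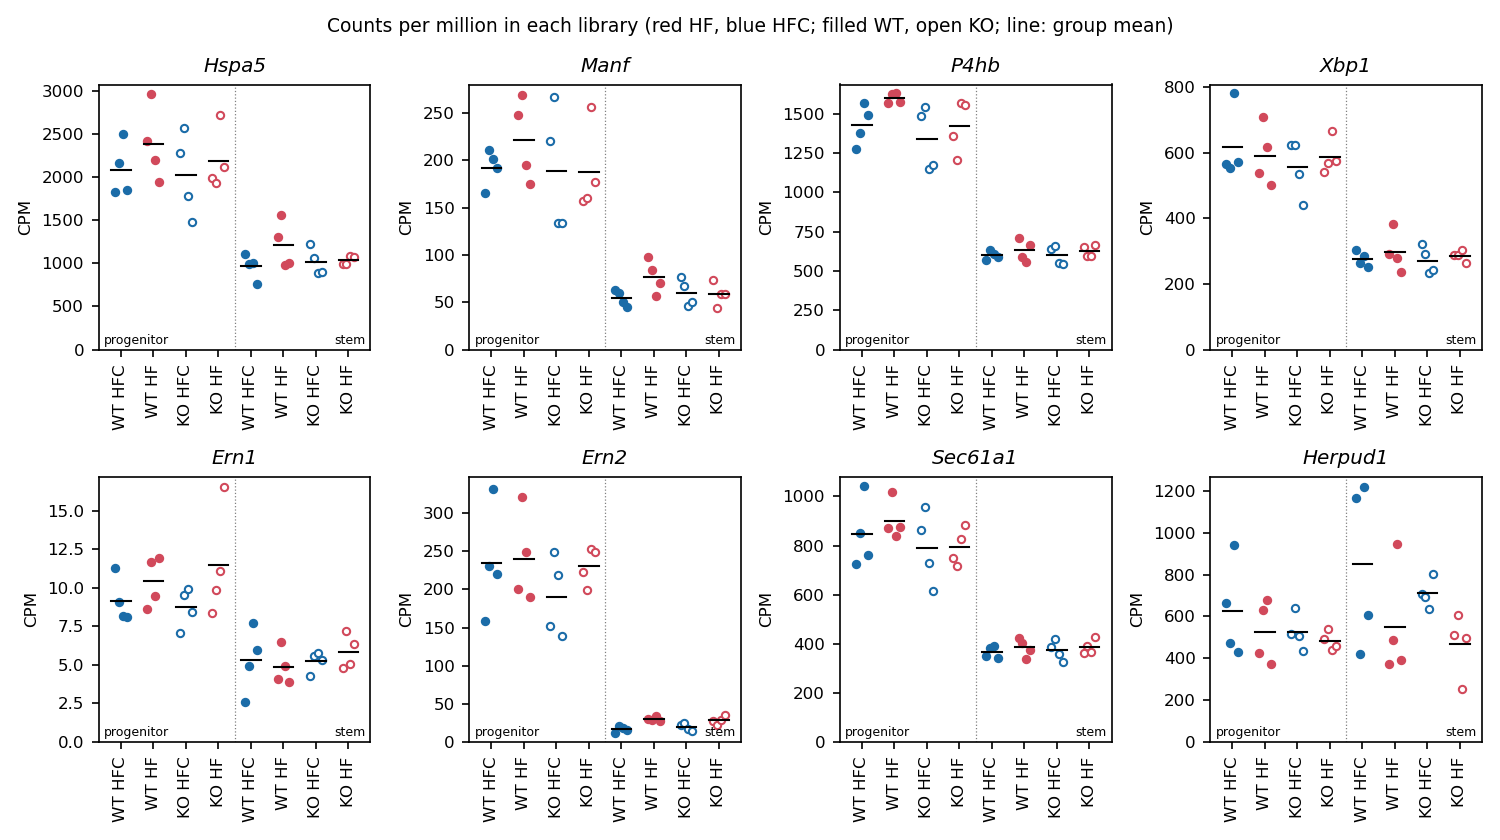
CPM of 8 of the genes in each library, by group, with progenitor groups at the left and stem groups at the right of each panel. Points are libraries (red HF, blue HFC, filled WT, open KO) and lines are group means. Ern2, Manf, P4hb, Xbp1 and Sec61a1 show no overlap between populations, Hspa5 and Ern1 meet at the edges, and Herpud1 spreads widest within its groups.

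The 9 genes with the ER stress element in their promoter were all lower in stem cells, with a median log2 difference of -1.04. Of the 22 other genes with a promoter entry, 21 were lower, with a median of -0.91. The element was also held by 28 genes outside the 38. Of these, 9 were tested, and 4 were lower and 2 higher in stem cells, with a median of -0.21. The 4 lower ones were Spats2l (-3.47), the oxidase gene Ero1b (-1.26), the glycosylation gene Alg12 (-0.71) and the RNA-binding protein gene Hnrnpa3 (-0.21). The 2 higher ones were the adenylyl cyclase gene Adcy3 (1.21) and Pan2 (0.32), which serves the shortening of poly(A) tails.

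The neighbouring steps of the pathway were described from 6 further lists of genes. In other folding and disulfide genes 25 of 31 tested were lower in stem cells and 2 higher, with a median log2 difference of -0.39. Agr2, a disulfide isomerase needed for mucin folding, was lower by -4.10, Pdia5 by -2.45, Dnajc10 by -2.15 and Txndc5 by -1.75. In signal recognition, signal peptidase and membrane insertion 23 of 27 were lower and 2 higher (median -0.48), among them Tram1 at -1.05 and the peptidase subunit genes Spcs2 and Spcs3 at -0.81 and -0.80. All 12 oligosaccharyltransferase genes were lower (median -0.71). The smallest adjusted p was that of Stt3a, a catalytic subunit, at -0.77, and the largest difference that of Ostc, at -1.13.

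In vesicle coats and cargo receptors 35 of 38 tested genes were lower and 2 higher (median -0.61). Kdelr3, a receptor that returns escaped ER proteins, differed by -4.27 and Sec24d, an adaptor of the outgoing coat, by -3.00, while Copb2 and Surf4 differed by -0.74 and -0.95. Among other degradation genes 20 of 23 were lower and 2 higher (median -0.27), with Selenos at -1.51. Among other regulators of the stress responses 14 of 22 were lower and 5 higher (median -0.26). The factors tied to secretory cells differed most: Bhlha15, which encodes MIST1, by -2.98, Creb3l1 by -2.71 and Creb3l4 by -2.61.

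Markers of secretory cells differed between the populations as well. All 20 goblet markers tested, all 18 Paneth markers and all 23 enteroendocrine markers tested were lower in stem cells, with median log2 differences of -4.37, -2.91 and -4.88. The goblet marker genes summed to 452 to 1235 CPM in stem and 10233 to 28835 CPM in progenitor libraries, Paneth marker genes to 260.0 to 3198 and 4330 to 29857 CPM, and enteroendocrine marker genes to 31.9 to 121 and 901 to 2049 CPM. None of these ranges overlapped. Of tuft cell markers 8 of 9 tested and of enterocyte markers 15 of 18 were lower, and all 15 stem cell markers tested were higher in stem cells.

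A score averaged over 61 markers of secretory cells stood at 1.73 to 3.6 in stem and 5.80 to 7.28 in progenitor libraries. With that score as a covariate 1 of the 38 genes passed, Sec61b (log2 -1.94, adjusted p 0.0426), 7 of the 38 changed sign, and 171 of all genes passed. The score and the population separate the same libraries, so within this design the population and the content of secretory cells cannot be told apart. Plasma cells also carry much ER, and the sort left out CD45+ cells. Without Sdc1, which epithelial cells express too, the 12 plasma and B cell markers summed to at most 7.50 CPM in any stem and 5.998 CPM in any progenitor library, and Mzb1, Ighm and Tnfrsf17 were at 0 in all progenitor libraries. The 14 markers of white blood, endothelial, stromal and red cells summed to at most 13.8 CPM in stem and 35.6 CPM in progenitor libraries, mostly of Itgam.

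Ern2 was the 1 gene of the 38 that passed for diet, in stem cells over both genotypes. It was the only call among 601 tests of these genes in the 16 comparisons other than stem against progenitor. The p-values were adjusted within each comparison and not over the comparisons. Ern2 stood at 29.4, 29.2, 34.2 and 27.3 CPM in the 4 WT stem libraries on HF diet and at 11.1, 21.1, 18.03 and 15.1 CPM in the 4 on HFC diet. In KO stem libraries it stood at 27.4, 22.7, 28.3 and 35.8 CPM on HF and at 22.3, 24.5, 17.1 and 13.99 CPM on HFC diet. The diets did not overlap in WT, as in 2 of the 37 genes tested and 6.62% of all genes, and they overlapped in KO stem cells. Over both genotypes Ern2 was higher on HF diet (log2 0.71 ± 0.14 (SE), adjusted p 0.0142), where 0.959% of all 12409 genes tested passed. At an unadjusted p under 0.05 edgeR had 4 of the 37 genes there, beside 11.9% of all genes. Leaving out each of the 16 stem libraries in turn gave adjusted p between 0.00948 and 0.0401.

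Within one genotype Ern2 did not pass, at 0.87 ± 0.20 (adjusted p 0.0599) in WT and 0.56 ± 0.19 (adjusted p 0.764) in KO stem cells (SE), where 0.250% and 0.0645% of all genes passed. At an unadjusted p under 0.05 edgeR had 7 and 1 of the 37 genes, beside 11.7% and 4.71% of all genes. DESeq2 called Ern2 in WT, with an adjusted p of 0.00519, where it called 1.45% of all genes, and 0 genes of the set in KO. The difference between the genotypes in the diet effect was -0.31 (adjusted p 0.999). In progenitors Ern2 ranged from 190 to 321 CPM on HF and from 139 to 332 CPM on HFC diet (log2 0.15 ± 0.16 (SE), adjusted p 0.779), and the diet effects of both populations differed by 0.55 ± 0.23 (SE, adjusted p 0.866), so a difference between them was not shown.

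Some markers of goblet cells, Paneth cells and enterocytes were also higher on HF diet in stem cells. Of goblet markers in stem cells 6 of 19 tested were higher on HF diet over both genotypes and 0 lower, with a median log2 difference of 0.78, among them Galnt12 at 0.75, Atoh1 at 0.78 and Klk1 at 0.77. The summed goblet markers were at 1008 to 1235 CPM in WT HF, 452 to 693 in WT HFC, 874 to 1166 in KO HF and 515 to 814 CPM in KO HFC stem libraries, without overlap between diets. Of Paneth markers 1 of 17 and of enterocyte markers 4 of 18 tested were higher on HF diet, with medians of 1.03 and 0.81. Of tuft and enteroendocrine markers 0 of 5 and 0 of 9 tested passed, with medians of 0.72 and 0.60. The summed tuft markers also did not overlap between diets, at 14.8 to 21.5 CPM on HF and 7.12 to 14.7 CPM on HFC diet, whereas those of Paneth, enteroendocrine and enterocyte markers did. Of stem cell markers 1 of 15 tested was lower on HF diet and 0 higher (median -0.10), and their sum, which overlapped between diets, was at 16108 to 18771 CPM in WT HF, 18136 to 21272 in WT HFC, 15297 to 18025 in KO HF and 16861 to 20281 CPM in KO HFC stem libraries. The secretory score was at 2.78 to 3.6 in HF and 1.73 to 3.03 in HFC stem libraries. With it as a covariate Ern2 did not pass (0.53, adjusted p 0.310), against 0.71 without it. Score and diet overlap little in these libraries, so their parts in the difference cannot be told apart. Within each diet, a relation looked at after its values had been seen, Ern2 was higher where the summed goblet markers were higher over 8 stem libraries. Pearson's r was 0.875 on HF (exact permutation p 0.00672, adjusted over the 2 diets 0.0132) and 0.827 on HFC diet (exact permutation p 0.0132, adjusted 0.0132), two-sided, and Spearman's rho 0.762 and 0.833 (exact permutation p 0.0368 and 0.0154, adjusted 0.0368 and 0.0308). Without the 2 libraries farthest from the median of the markers r was 0.694 and 0.539, so part of the relation rests on those libraries. The other marker lists and other genes were not looked at in this way. The relation is thus not shown to be particular to goblet markers or to Ern2. The part of goblet or other cell content in the diet difference of Ern2 was not tested beyond these values.

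**Figure D4:**
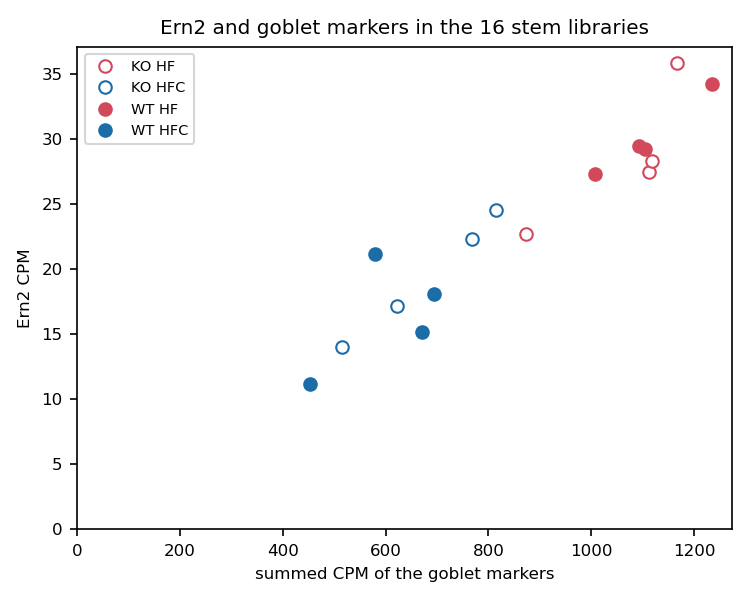
Ern2 against the summed goblet markers, both in CPM, in the 16 stem libraries (red HF, blue HFC, filled WT, open KO). HF libraries lie at 874 CPM or more of goblet markers and HFC libraries at 814 or less, and Ern2 is higher where the markers are higher.

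The other genes did not pass for diet in either population. In stem cells Hspa5 was at 1210 ± 273 CPM in WT HF, 966 ± 145 in WT HFC, 1033 ± 48.4 in KO HF and 1019 ± 157 CPM in KO HFC libraries (SD, n = 4 each), with a diet difference of 0.18 over both genotypes (adjusted p 0.526). Xbp1 differed by 0.10 (adjusted p 0.741) and Ern1 by 0.03 (adjusted p 0.983). Herpud1 had the largest negative value, -0.61 ± 0.27 (SE, adjusted p 0.394). Its KO stem libraries, at 253 to 605 CPM on HF and 634 to 805 CPM on HFC diet, did not overlap, which held for 1 of the 37 genes and 3.22% of all genes. In WT stem cells Eif2ak3 came next to Ern2 by p, at -0.46 (adjusted p 0.306), and in KO stem cells Sec62, at -0.14 (adjusted p 0.999). Over the 37 genes tested in stem cells, 28 had a positive diet difference, with a median of 0.07 beside 0.01 for all genes. A shift of the set as a whole was not tested.

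In progenitors 0 of the 38 genes passed for diet in WT, in KO or over both genotypes, where 0.0883%, 0.313% and 0.891% of the 12460 genes tested passed. At an unadjusted p under 0.05 edgeR had 1, 2 and 4 of the 38, beside 7.06%, 9.77% and 11.3% of all genes, and DESeq2 also called 0 after adjustment. The nearest were Sel1l and Hyou1 over both genotypes, at 0.23 ± 0.09 and 0.19 ± 0.08 (SE, adjusted p 0.307 and 0.335). In KO progenitors Sel1l lay at 212 ± 10.2 CPM on HF and 178 ± 21.7 CPM on HFC diet (SD, n = 4 each) and Edem3 at 71.0 ± 3.7 and 55.2 ± 7.24 CPM, both without overlap. These were 2 of the 38 genes without overlap, beside 5.71% of all genes, and in WT progenitors 0 of the 38 were, beside 4.01%. In WT progenitors Hyou1 was at 0.31 (adjusted p 0.564), and in KO progenitors Edem3 at 0.36 (adjusted p 0.371) and Edem2 at 0.26 (adjusted p 0.487). Of the 38 genes 34 had a positive diet difference over both genotypes, with a median of 0.10 beside -0.002 for all genes. Whether the set as a whole moved with diet was not tested. Of the stress regulators outside the 38, 2 of 20 tested were higher on HF diet in stem cells over both genotypes, where 0.959% of all genes passed. These were Bhlha15 at 1.02 ± 0.20 and Creb3l4 at 0.59 ± 0.10 (SE, adjusted p 0.0132 and 0.00621). The summed goblet markers were also higher on HF diet in these libraries, so cell content and diet cannot be told apart here. Bhlha15 also passed in WT stem cells alone (1.5, adjusted p 0.0409), but no longer did when 1 of 9 libraries was left out (WT HF a, b, c or d, WT HFC a, c or d, KO HFC a or KO HF c), with adjusted p from 0.0545 to 0.130.

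**Figure D5:**
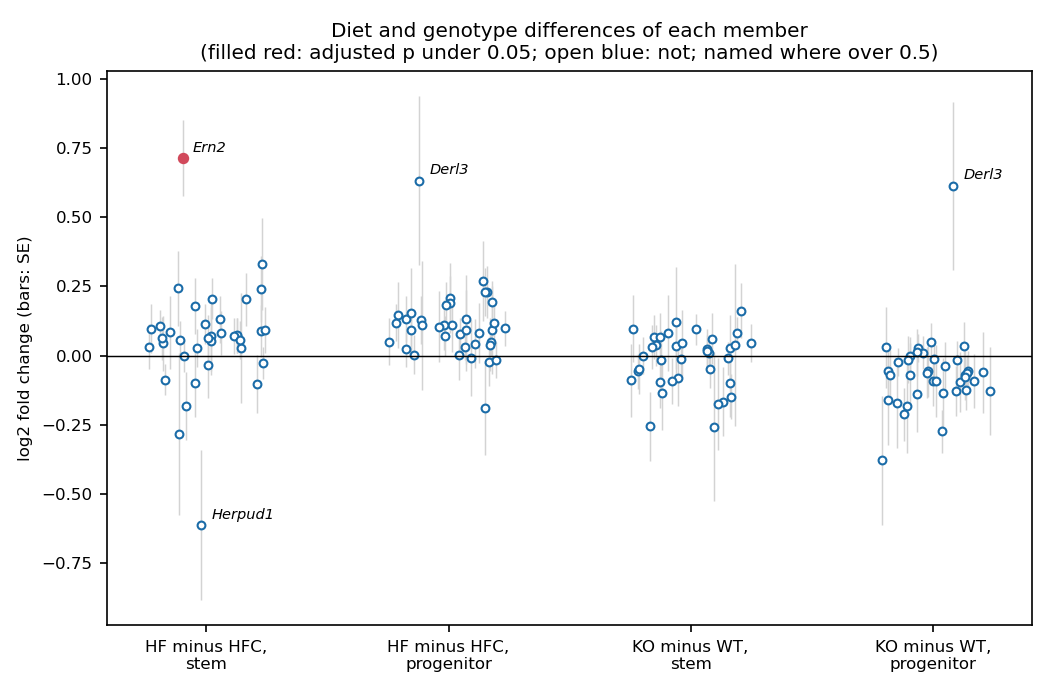
Log2 fold change (bars: SE) of each gene for diet (HF minus HFC, over both genotypes) and genotype (KO minus WT, over both diets) in stem cells and progenitors. Ern2 in stem cells, at 0.71, is the only filled point, and Herpud1 on HF diet in stem cells is lowest at -0.61. Derl3, not tested in stem cells, is highest in both progenitor columns with wide bars.

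Loss of Cpt1a changed none of the 38 genes past the threshold of the edgeR test in 6 comparisons. In stem cells 0 of 37 passed on HF, on HFC or over both diets, where 0.443%, 0.242% and 0.830% of all genes did. In progenitors 0 of 38 passed on HF, on HFC or over both diets, where 0.706%, 0.257% and 1.21% of all genes did. At an unadjusted p under 0.05 edgeR had 1, 1 and 0 of the 37 in stem cells, beside 6.38%, 4.73% and 7.01% of all genes. In progenitors it had 1, 0 and 2 of the 38, beside 10.6%, 5.80% and 11.2%. DESeq2 called 0 in each after adjustment. Hyou1 came nearest. In progenitors on HF diet it was at 40.8 ± 1.49 CPM in KO and 53.9 ± 6.94 CPM in WT libraries (SD, n = 4 each), with ranges of 38.9 to 42.4 and 48.7 to 63.8 CPM that did not overlap. In that comparison 2 of the 38 genes had no overlap, beside 7.09% of all genes, and on HFC diet in progenitors 0 of the 38, beside 3.20%. In stem cells the groups of KO and WT did not overlap in 1 of the 37 genes on HF and 2 on HFC diet, beside 3.55% and 3.92%. Over the 8 comparisons of diet or genotype between groups of 4 libraries, 10 of 300 gene values were free of overlap (3.33%), while the shares of all genes in those comparisons ran from 3.20% to 7.09%, so non-overlap was not more frequent in the set. The log2 difference of Hyou1 in progenitors was -0.39 ± 0.11 on HF diet (SE, adjusted p 0.128) and -0.27 ± 0.08 over both diets (SE, adjusted p 0.120).

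The other nearest genes for genotype were spread over the roles. Eif2ak3 on HFC diet in stem cells was at 12.2 to 16.3 CPM in KO and 16.4 to 26.5 CPM in WT libraries, side by side without overlap (log2 -0.53 ± 0.17 (SE), adjusted p 0.592). Canx on HF diet in stem cells was at 516 to 554 CPM in KO and 390 to 478 CPM in WT libraries (log2 0.31 ± 0.14 (SE), adjusted p 0.751), next to Manf at -0.39 (adjusted p 0.787). The remaining ones were Derl1 on HFC diet in stem cells at 0.11, Edem1 over both diets in stem cells at -0.15, P4hb on HF diet in progenitors at -0.16, and Atf6 and Sec63 on HFC diet in progenitors at -0.27 and -0.14. Hspa5 differed by -0.08 ± 0.10 in stem cells and -0.07 ± 0.12 in progenitors over both diets, Xbp1 by -0.05 ± 0.09 and -0.07 ± 0.09, Ern1 by 0.12 ± 0.20 and 0.03 ± 0.15, and Ern2 by 0.08 ± 0.14 and -0.17 ± 0.16 (SE, adjusted p between 0.777 and 0.996).

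Interactions were tested in the same way. For diet by genotype 0 of the 37 genes passed in stem cells and 0 of the 38 in progenitors, and 0% of all genes did in either. Eif2ak3 (0.55, adjusted p 0.999) and Manf (-0.52, adjusted p 0.999) were nearest in stem cells and Sec63 (0.22, adjusted p 0.969) and Hyou1 (-0.24, adjusted p 0.969) in progenitors. Whether the difference between stem cells and progenitors itself depended on genotype or diet was tested over all 32 libraries, and again 0 of the 38 passed, with 0% of all genes. Atf6 (0.33) and Canx (0.19) were nearest for genotype, and Ern2 (0.55) and Dnajb9 (-0.32) for diet, with adjusted p between 0.866 and 0.99998 for the 4 values. At an unadjusted p under 0.05 edgeR had 1 of the genes in each of these 4 tests, beside 3.58% and 4.50% of all genes for diet by genotype in stem cells and progenitors and 393 of the 13088 genes and 5.24% of them for the dependence of the population difference on genotype and on diet. DESeq2 called 0 of the set after adjustment. A p above the threshold does not show that the difference is the same in every setting: for Dnajb9 the log2 difference between stem cells and progenitors ran from -0.97 to -0.36 over the 4 settings, and for Eif2ak3 from -0.80 to -0.30.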

How the data were processed

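Per the submitters' processing notes, STAR 2.5.3a, RSEM 1.3.0 and SAMtools 1.3 were used with mm10; annotation and strandedness are not given in the sources used here. The authors deposited estimated counts per gene, already rounded to whole numbers, and a second table of log2(TPM + 1) values. Counts for genes without a symbol made up 0.0677% of the total. Gene names and positions come from the deposited IDs and the GENCODE annotation of GRCm38. The genes and lists were chosen with earlier results of these data known.

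Counts were scaled by TMM and tested with edgeR 4.0.16 (robust quasi-likelihood, R 4.3.3) after removal of low genes (filterByExpr, minimum count 10), with the 8 groups as terms. The joint fit of 32 libraries tested 13088 genes, the stem fit 12409 and the progenitor fit 12460; 37 of the 38 genes passed the filter in stem cells (Derl3 did not) and all 38 in the others. Called means a Benjamini-Hochberg adjusted p under 0.05 over all genes tested, and 17 comparisons were made. Fold changes are edgeR's, and their SE was taken from the F statistic. TPM was recovered from the deposited log2 values. Ranges over the libraries of each population are given for the 10 genes of largest difference between populations, and for Hspa5, Xbp1, Ern1, Ern2 and, outside the 38, Ddit3. The other comparisons name the called genes or, with none, the 2 of smallest p, and the other lists up to 4 of smallest adjusted p; the 6 called genes with the ER stress element outside the 38 were named after their values were seen. The fit was tested on simulated data. Alternatives were DESeq2 1.42.0, RLE scaling, no filter, limma 3.58.1 on log2(TPM + 1), an Xist term, a secretory marker score, other sets of libraries and each library left out. Near copies were transcripts of other genes at 95% identity over 50% of the copy (BLAST+ 2.17.0).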

Additional observations from a re-analysis of the deposited data

Results flagged for a closer look

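In 18 of the 304 combinations of gene and group (5.92%) the highest or lowest of the 4 libraries stood apart from the other 3 by more than Dixon's 95% critical value for 4 samples. Chance alone puts about 1 in 20 groups past this value, so a share of this size is near what chance gives. In stem libraries the values that stood low were Hsp90b1 at 658 CPM in WT HF library c (others 813 to 839), Creld2 at 82.4 (87.6 to 88.5), Pdia4 at 354 (380 to 383) and Syvn1 at 28.6 (46.9 to 49.7) in KO HF library a, Sec61g at 1.31 in WT HFC library d (3.52 to 3.83) and Sec63 at 122 in KO HFC library c (137 to 138). Those that stood high were Calr at 434 in KO HF library d (322 to 333), Derl1 at 157 in KO HF library a (140 to 143), Derl2 at 105 in WT HF library b (87.9 to 89.9), Derl3 at 2.71 in KO HFC library a (0.797 to 1.06), and Ssr2 at 271 (246 to 250) and Ssr4 at 92.8 (84.7 to 86.0) in WT HFC library b. In progenitor libraries Pdia3 stood high at 2418 (2086 to 2113), Edem2 at 250 (194 to 202) and Derl3 at 5.58 CPM (2.07 to 2.34) in WT HF library b, and Pdia4 at 643 (509 to 526) and Xbp1 at 780 CPM (555 to 571) in WT HFC library c. Edem3 stood low at 44.3 CPM in KO HFC library d (58.3 to 59.2). The 4 genes for which KO HF stem library a stood apart were Creld2, Pdia4 and Syvn1, which stood low, and Derl1, which stood high. In 0 cases did every library of one group move opposite to every library of another under the same contrast.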

How the results depend on the processing

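The count of 37 lower in stem cells was the same with DESeq2, with RLE scaling, without a filter on low counts and with a term for Xist, and leaving out each of the 32 libraries changed no count of called genes in any comparison. Among the genes named, leaving out 1 library ended a call for Bhlha15 in WT stem cells on diet (1.33 to 1.68). It turned the sign of 3 differences that had not passed: Ern1 for diet in stem cells (-0.085 to 0.15), Ern1 for genotype in progenitors (-0.082 to 0.091) and Xbp1 for genotype in stem cells (-0.095 to 0.022). With limma on log2(TPM + 1) the count was 34 (33 lower, and Herpud1 higher at 0.47). Sec62 turned to 0.14, and Sec62, Sec63, Sel1l and Eif2ak3 no longer passed. In that analysis the median of all genes moved to 0.27, and 7617 genes were higher and 1981 lower, against 4259 and 4056 in edgeR. Relative to that median Sec62 stood at -0.12. Ddit3 and Hnrnpa3 between populations and Bhlha15 in WT stem cells did not pass with limma either, and Ern1 for genotype in progenitors turned to -0.17. Bhlha15 in WT stem cells also missed the threshold when only the compared libraries were fitted (1.5, adjusted p 0.0819). Once the secretory marker score was added as a term, the count was 1, and 7 genes turned positive, none past the threshold: Ern1 at 1.11, Atf6 at 0.99, Eif2ak3 at 0.79, Derl3 at 0.70, Sel1l at 0.49, Syvn1 at 0.48 and Sec62 at 0.070. Outside the 38, Ddit3 turned to 0.51 and Alg12 to 0.37. For diet, Ern1 in stem cells turned to -0.53 and Ern2 in progenitors to -0.36. In all, of the 115 differences followed, that term turned 11, and it ended the call of 60 others that kept their sign. That term took the diet count over both genotypes in stem cells from 1 to 0. For diet in WT stem cells the count was 1, Ern2, with DESeq2 and without a filter, against 0; the cause was not tested. All other counts of called genes were the same in every alternative run. Ordering levels by the median in place of the mean kept the same 5 highest genes in stem cells. From the labels, no paired analysis was possible because the columns carry no replicate number that could be matched to the labels. Pairing stem and progenitor libraries by the order of their columns was not tested. The fit, with the 8 groups as terms, treats all libraries as independent, and whether libraries of one letter share an animal is not known. The term for Xist, which separates libraries a and b from c and d in every group, changed no call or direction of the 115 differences. Depth limits Derl3, Sec61g and Ern1, which had few counts, and 4 libraries per group limit the differences of diet and genotype that could pass.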
